A study of Mus musculus with 8 samples.

Results

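This account concerns 39 genes of the DNA damage response and of DNA repair, chosen by name from 7 repair pathways. The array annotation assigned at least 1 probe set to 36 of them (69 probe sets). Lig4, Trp53 and Fancd2 were not analysed here, because no probe set carried their symbol. Of the 36, 32 genes with 45 probe sets passed the filter on low values and were tested, out of 13042 probe sets of 7825 named genes tested in all. Bard1, Ogg1, Ercc2 and Xpa had no tested probe set.

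The samples were lymph node cells of the inbred mouse strain B10.BR, obtained by flow cytometry and measured on Affymetrix arrays. Naive mice gave 3 arrays, mice 7 days after immunization gave 3, and mice 28 days after immunization gave 2. What was injected and which cells were sorted is not stated in the labels, which also give no genetic change, age or pooling, and nothing says that replicates were separate animals, so a p-value reflects only how far these arrays scatter. Each value is a log2 ratio of a probe set's level to its own median across all 8 arrays, or to a floor shared by all probe sets if the median lies below it. A value therefore compares arrays for 1 probe set and says nothing about which gene is more abundant. In bulk samples, fewer cells expressing a gene and less RNA per cell cannot be told apart.

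Cells meet DNA damage with several repair routes. Homologous recombination copies the sister chromatid to mend broken DNA, and its genes are known to be used mainly in cells that replicate their genome. End joining seals breaks directly in resting cells as well, excision pathways replace damaged bases or bulky lesions, and mismatch repair corrects replication errors. The kinases Atm and Atr and their targets Chek1 and Chek2 halt the cell cycle while repair proceeds. Activated lymphocytes divide fast, and germinal centre B cells also use Ung, Msh6 and Exo1 when they diversify antibody genes.

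Stretches of DNA before the start sites of member genes are shown first, because promoter letters are a feature that the choice of genes by name did not use. RefSeq promoter windows (build GRCm38.p6, 250 bases before to 50 after the start) matched 33 of the 39 genes. They were searched on both strands for TTTCCCGC, TTTCGCGC, TTTGCCGC and TTTGGCGC, letters bound by E2F, the factor family of S phase genes. At least 1 was found in 7 of the 33 genes (21.2%), in 316 of 6357 genes tested on the arrays (4.97%) and in 704 of all 27025 genes in the table (2.60%). The 5 genes with these letters wholly before the start were Brca2, Msh3, Chek2, Xrcc6 and Bard1, and in Msh3 a forward and a reverse match overlap. Each is printed 5′ to 3′ on the gene's strand with those letters, or their reverse complement, in capitals.
Brca2, chr5:150522423-150522490, plus strand: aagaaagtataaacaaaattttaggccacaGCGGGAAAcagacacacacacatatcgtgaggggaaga
Msh3, chr13:92355164-92355235, minus strand: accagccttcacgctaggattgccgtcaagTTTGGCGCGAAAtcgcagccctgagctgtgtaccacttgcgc
Chek2, chr5:110839801-110839868, plus strand: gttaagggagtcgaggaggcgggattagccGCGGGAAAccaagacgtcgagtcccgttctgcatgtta
Xrcc6, chr15:82016293-82016360, plus strand: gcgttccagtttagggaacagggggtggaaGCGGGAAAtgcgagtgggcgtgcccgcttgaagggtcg
Bard1, chr1:71103144-71103211, minus strand: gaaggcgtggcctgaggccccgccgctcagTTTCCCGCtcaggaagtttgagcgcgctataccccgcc

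The letters CCAAT, bound by the factor NF-Y, lay in the windows of 19 of the 33 genes (57.6%) and of 43.2% of genes tested on the arrays. The letters TTTGAA or TTCGAA, which include the CHR element of cell cycle promoters, lay in 3 (9.09%) against 16.8%. The p53 consensus lay in 0 of 33, in 0 of 6357 and in 3 of all 27025 genes in the table. A match so rare makes the 0 among the members uninformative. The 100 bases before the start are shown for Rad51ap1, Xrcc1 and Parp1, which had the smallest p-values described further on, with CCAAT or its reverse complement in capitals. A match is a description of letters, not a bound site.
Rad51ap1, chr6:126939588-126939687, minus strand: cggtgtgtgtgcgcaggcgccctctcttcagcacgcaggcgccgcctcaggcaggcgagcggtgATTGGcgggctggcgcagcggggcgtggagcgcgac
Xrcc1, chr7:24546599-24546698, plus strand: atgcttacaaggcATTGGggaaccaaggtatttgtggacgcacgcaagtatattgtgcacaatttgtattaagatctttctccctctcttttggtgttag
Parp1, chr1:180568791-180568890, plus strand: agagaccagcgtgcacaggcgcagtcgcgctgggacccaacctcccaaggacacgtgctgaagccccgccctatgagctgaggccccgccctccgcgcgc

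Features of the whole series bear on every comparison. The spike-in controls for hybridisation had median log2 ratios between -1.70 and -1.03 on naive replicate 1 and the 3 day 7 arrays, and between 0.64 and 1.41 on the other 4 arrays. Differences inside each of these sets are given beside the pooled ones for the members described at length: day 7 against naive replicate 1 alone, and day 28 against naive replicates 2 and 3. A list of proliferation genes (19 tested) had medians between -0.54 and -0.31 on the naive arrays, 0.74, 1.12 and 1.19 on the day 7 arrays, and -0.44 and -0.06 on the day 28 arrays. B cell markers had medians of -0.56 to -0.11 on the naive arrays, -0.25 to 0.07 at day 7, and 4.43 and 3.56 at day 28, so both day 28 arrays stood apart in these markers. T cell markers ran from -0.29 to 0.24, from -0.39 to 1.75, and were -0.57 and 0.21 in the same order, and since the values are ratios, they cannot show which cell type made up a sample.

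**Figure D1:**
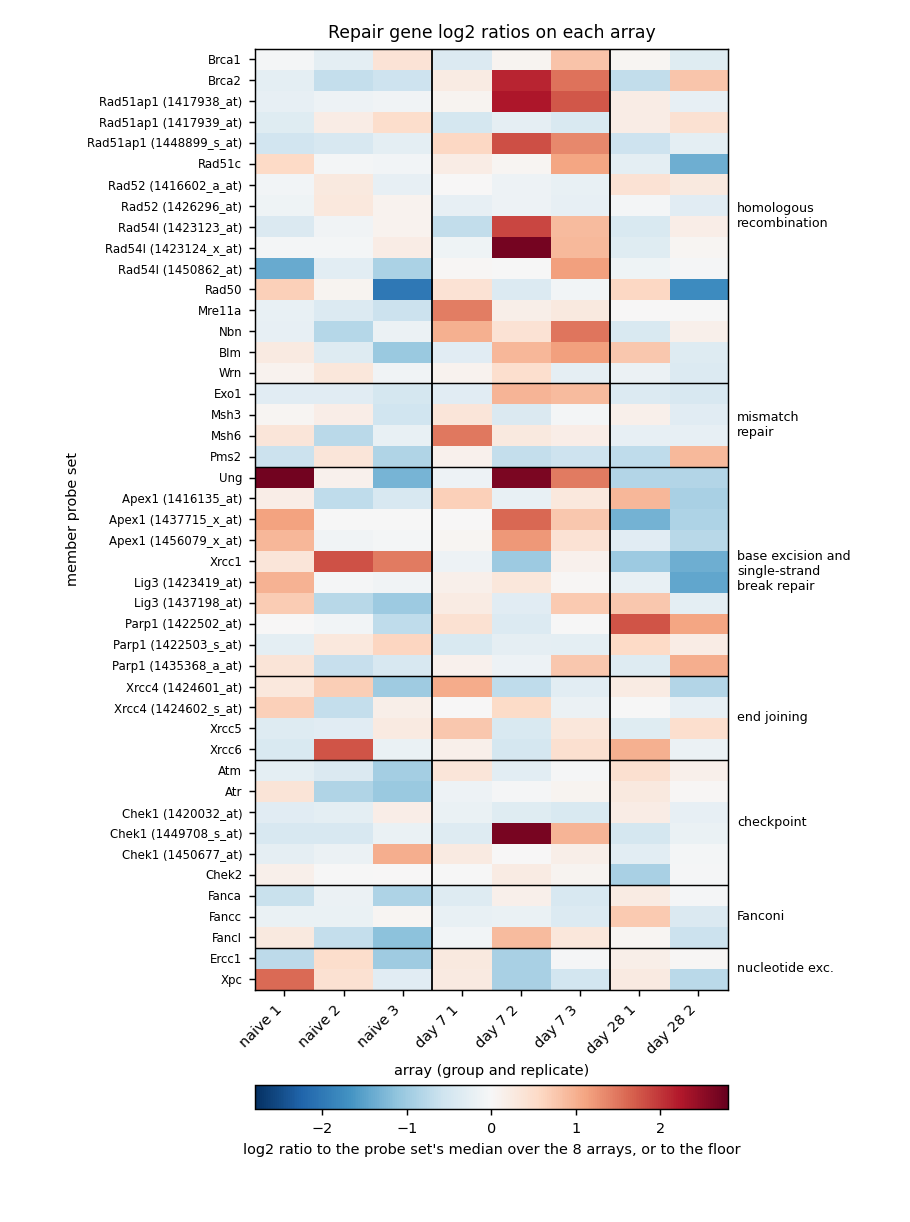
Log2 ratio of each of the 45 tested repair probe sets (rows, grouped by pathway) on each of the 8 arrays (columns). Red is above and blue below the probe set's median or the floor, and the darkest red cells include Ung on naive replicate 1 (2.70) and Rad54l on day 7 replicate 2 (2.68).

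The first comparison asked which repair genes differed 1 week after immunization. None of the 45 tested probe sets passed (limma, Benjamini-Hochberg adjusted p under 0.05), in a comparison that called 1.17% of all probe sets tested. The genes nearest the threshold belonged to homologous recombination and were higher at day 7: Rad51ap1, Nbn, Brca2, Rad54l and Mre11a. In the opposite direction stood Xrcc1, the scaffold of single-strand break repair. At an unadjusted p under 0.05, 7 of the 45 were counted, 6 of them higher (13.3%, background 12.4%) and 1 lower (2.22%, background 3.08%), so the members' share was near that of all probe sets. Groups did not overlap for 6 probe sets that were higher (13.3%, background 13.4%) and for 2 that were lower, Xrcc1 and Rad52 (4.44%, background 8.61%). A difference above 0 was seen for 32 of 45 (71.1%, background 56.0%).

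Among the proteins that act in strand exchange, Rad51ap1 encodes a factor that stimulates it. Its probe set 1448899_s_at had log2 ratios of -0.54, -0.44 and -0.27 in naive samples, 0.57, 1.81 and 1.34 in day 7 samples, and -0.57 and -0.27 in day 28 samples. All day 7 arrays were above all others. The difference of day 7 from naive was 1.65 ± 0.36 (SE), the smallest adjusted p of any member (0.0905), with a 95% interval of 0.82 to 2.49. Against naive replicate 1 alone the difference was 1.77. No naive or day 28 array reached a ratio of 1 for this probe set, so it passed the filter only because it was high at day 7. The same held for Rad54l probe set 1450862_at, Exo1 and Chek1 probe set 1449708_s_at. The p-values, intervals and lack of overlap of these probe sets are therefore descriptions.

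A neighbouring Rad51ap1 probe set, 1417938_at, had ratios of -0.22, -0.14 and -0.09 in naive samples, 0.09, 2.27 and 1.75 in day 7 samples, and 0.22 and -0.24 in day 28 samples. Here day 7 replicate 1 lay just above the naive arrays and below 1 day 28 array, and the other 2 day 7 arrays were high (difference 1.52 ± 0.54, adjusted p = 0.244; 1.59 against naive replicate 1). The third tested probe set of the gene, 1417939_at, did not share this pattern and was lower at day 7 than on naive replicates 2 and 3 (difference -0.51 ± 0.30, adjusted p = 0.439; -0.05 against naive replicate 1). Without day 7 replicate 1, 1417938_at passed in limma (2.16 ± 0.33, adjusted p = 0.0484), where 0.813% of all probe sets were called. As the mean of its 3 tested probe sets, the gene had a difference of 0.89 ± 0.35 (adjusted p = 0.261).

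Brca2, a tumour suppressor that acts on resected DNA, had log2 ratios of -0.27, -0.66 and -0.58 in naive samples, 0.23, 2.14 and 1.51 in day 7 samples, and -0.69 and 0.79 in day 28 samples. The day 7 arrays did not overlap the naive ones, and 1 day 28 array lay between the day 7 values (difference 1.80 ± 0.57, adjusted p = 0.195; 1.57 against naive replicate 1). Rad54l encodes a motor protein that acts during invasion of the template. Its 3 probe sets had day 7 differences of 1.25 ± 0.43, 1.13 ± 0.64 and 0.83 ± 0.61 (adjusted p = 0.226, 0.425 and 0.522), and 1.80, 1.21 and 1.09 against naive replicate 1. The first of these, 1450862_at, had ratios of -1.41, -0.30 and -0.89 in naive samples and 0.03, -0.02 and 1.14 in day 7 samples. Its day 28 values of -0.12 and -0.03 lay close to those of day 7 replicates 1 and 2. By probe set 1423124_x_at, the ratios of Rad54l were -0.05, -0.05 and 0.21 in naive samples, -0.11, 2.68 and 0.92 in day 7 samples, and -0.33 and 0.05 in day 28 samples. Day 7 replicates 2 and 3 were high, and replicate 1 lay below every naive array.

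The proteins of Mre11a, a nuclease, Rad50, which tethers DNA ends, and Nbn, their regulator, form the complex that senses breaks. Nbn had log2 ratios of -0.22, -0.79 and -0.16 in naive samples, 1.0, 0.41 and 1.5 in day 7 samples, and -0.43 and 0.15 in day 28 samples. Every day 7 array was above every other array (difference 1.36 ± 0.38, adjusted p = 0.157; 1.19 against naive replicate 1). Mre11a had ratios of -0.20, -0.39 and -0.60, then 1.44, 0.16 and 0.28, then 0.01 and -0.01, with day 7 again above all other arrays (difference 1.03 ± 0.38, adjusted p = 0.271; 0.83 against naive replicate 1). Rad50 had no such order: its lowest values were -2.0 on naive replicate 3 and -1.77 on day 28 replicate 2 (difference 0.40, adjusted p = 0.825; -0.68 against naive replicate 1).

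Among the remaining recombination genes, Blm, a RecQ helicase that dissolves joined DNA molecules, had ratios of 0.26, -0.36 and -1.04 in naive samples, -0.32, 0.93 and 1.16 in day 7 samples, and 0.75 and -0.37 in day 28 samples, with overlap between groups (difference 0.97 ± 0.54, adjusted p = 0.418; 0.33 against naive replicate 1). Wrn, its relative, had a difference of -0.01. Brca1, whose ubiquitin ligase partner is Bard1, was measured by 1 tested probe set with a difference of 0.14, and its other 3 probe sets were too dim to be tested. Rad51c, which acts in the same pathway, had a difference of 0.31, and the 2 probe sets of Rad52, an annealing protein, of -0.09 and -0.28. The latter, 1426296_at, had day 7 values below all naive values.

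By array, 6 of the 16 tested recombination probe sets lay above every naive array on day 7 replicate 1, 10 on replicate 2 and 11 on replicate 3. The same held for 34.5%, 25% and 28.6% of all probe sets tested. Day 7 replicate 1 was thus near the share of all probe sets (37.5%), and replicates 2 and 3 were higher (62.5% and 68.8%). Of the proliferation list's 32 tested probe sets, 21, 25 and 24 lay above every naive array (65.6%, 78.1% and 75%). In limma, 8 of 32 rose (1.06% of all probe sets). The 8 include Ccnb2 and a dim Ccna2 probe set, which passed the filter only because they were high at day 7. The count of 8 is therefore a description. On day 7 replicate 1, the proliferation share was above that of all probe sets and the recombination share was near it. By median log2 ratio, replicate 1 was the lowest day 7 array for both lists. The medians were 0.06, 0.29 and 0.91 for recombination, and 0.74, 1.12 and 1.19 for proliferation. The part of proliferation in the recombination values was not tested. The median difference of the 16 recombination probe sets was 0.90, against 0.11 for all probe sets tested, and 0.58 against -0.00 within the low spike-in arrays. Over all 25 recombination probe sets, dim ones included, it was 0.14, against 0.02 for all probe sets on the array. The shares by array and this median are descriptions, since a probe set above the floor only at day 7 passed the filter because it was high there.

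**Figure D2:**
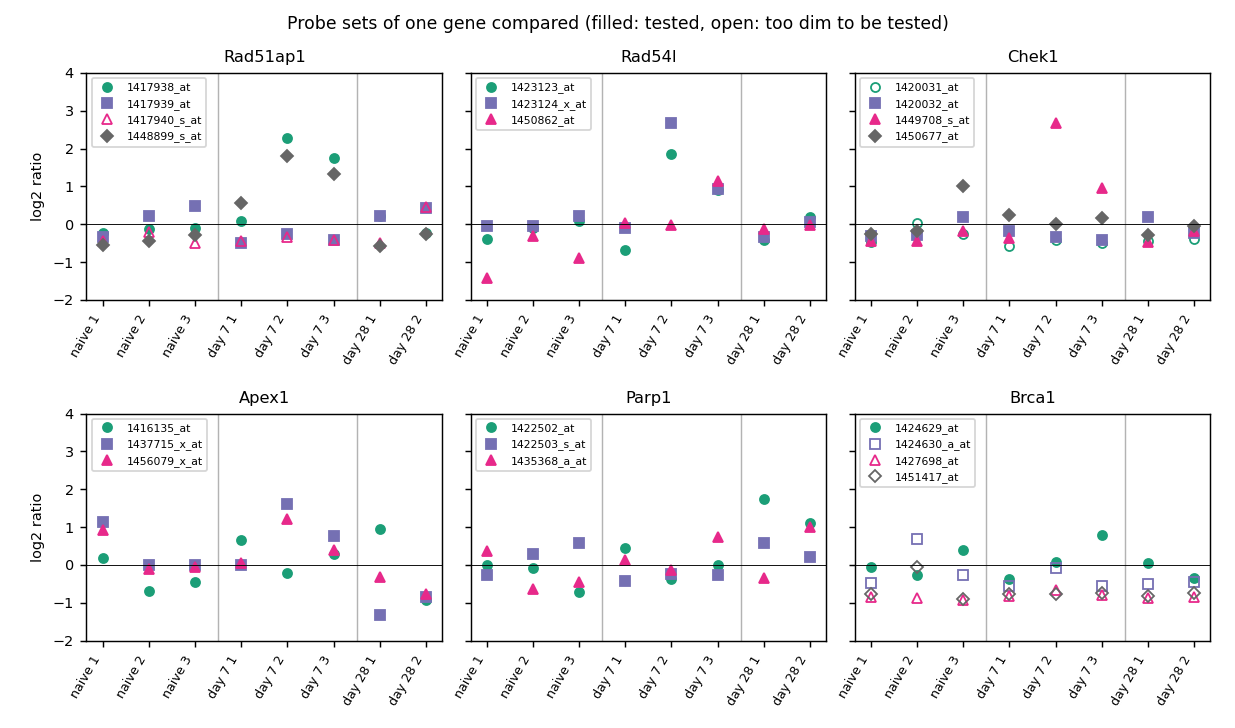
Log2 ratios of every probe set of 6 genes on the 8 arrays, with tested probe sets filled and probe sets too dim to be tested open. For Rad51ap1 and Chek1, 1 or 2 probe sets are high on day 7 replicates 2 and 3 and the gene's others are not.

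In mismatch repair, Exo1 encodes the exonuclease that removes the faulty strand and also resects broken ends. It had log2 ratios of -0.31, -0.32 and -0.48 in naive samples, -0.32, 0.95 and 0.89 in day 7 samples, and -0.37 and -0.44 in day 28 samples. Day 7 replicates 2 and 3 were high and replicate 1 was at the naive level (difference 0.88 ± 0.38, adjusted p = 0.325; 0.81 against naive replicate 1). Msh6, a subunit of the sensor for single mispairs, had 0.33, -0.76 and -0.20, then 1.48, 0.28 and 0.18, then -0.22 and -0.23, so that only day 7 replicate 1 exceeded all naive arrays (difference 0.85 ± 0.44, adjusted p = 0.397; 0.31 against naive replicate 1). Msh3, the corresponding subunit for small loops, and Pms2, a nicking endonuclease, had differences of 0.06 ± 0.34 and -0.00 ± 0.52.

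Base excision genes did not move as a block. Xrcc1 had log2 ratios of 0.34, 1.78 and 1.46 in naive samples, -0.14, -1.01 and 0.13 in day 7 samples, and -1.02 and -1.36 in day 28 samples. All immunized arrays were below all naive ones, with naive replicate 1 nearest to them. The day 7 difference was -1.53 ± 0.47 (adjusted p = 0.186), and -0.69 against naive replicate 1. Without naive replicate 1, Xrcc1 (-1.96 ± 0.41, adjusted p = 0.0252) and Rad51ap1 probe set 1448899_s_at (1.59 ± 0.41, adjusted p = 0.0466) passed in limma, where 13.2% of all probe sets were called. Rad51ap1 probe sets 1417938_at (1.48 ± 0.62, adjusted p = 0.166) and 1417939_at (-0.74 ± 0.28, adjusted p = 0.132) did not pass there.

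Ung, which removes uracil from DNA, varied most within a group: 2.70, 0.13 and -1.31 in naive samples, -0.14, 2.64 and 1.44 in day 7 samples, and -0.82 and -0.83 in day 28 samples. Naive replicate 1 was as high as the highest day 7 array, and the difference of 0.81 had an SE of 1.05 and was -1.38 against naive replicate 1. The 3 probe sets of Apex1, which cuts DNA at the abasic site that Ung leaves, had differences of 0.57, 0.42 and 0.31, and 0.07, -0.35 and -0.37 against naive replicate 1. Lig3, the ligase partner of Xrcc1, had -0.11 and 0.59 by its 2 tested probe sets, and Parp1, the sensor of single-strand breaks, 0.28, -0.52 and 0.49. Directions differed between probe sets of both genes, and no adjusted p of theirs was below 0.444.

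Among checkpoint genes, Chek1 encodes the kinase that slows S phase when replication forks stall. Its probe set 1449708_s_at had log2 ratios of -0.45, -0.45 and -0.19 in naive samples, -0.36, 2.66 and 0.94 in day 7 samples, and -0.48 and -0.19 in day 28 samples (difference 1.45 ± 0.68, adjusted p = 0.357; 1.53 against naive replicate 1). The high values were those of day 7 replicates 2 and 3, as for Exo1 and Rad54l probe set 1423124_x_at. Its other tested probe sets had differences of -0.06 and -0.17. Atm, the kinase of broken ends, had 0.54 ± 0.31, Atr, the kinase of stalled forks, 0.47 ± 0.40 (-0.39 against naive replicate 1), and Chek2, the target of Atm, 0.05 ± 0.30.

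In end joining, the Ku subunits Xrcc5 and Xrcc6, which cap broken ends, had differences of 0.36 ± 0.41 and -0.35 ± 0.63. Xrcc4, the partner of the end joining ligase, had 0.02 and 0.07. Of the Fanconi anaemia genes, which clear crosslinks, the ligase subunit Fancl had 0.89 ± 0.45 (adjusted p = 0.382; 0.11 against naive replicate 1), Fanca 0.33 ± 0.31 and Fancc -0.15. In nucleotide excision repair, the damage sensor Xpc had -0.95 ± 0.56 (adjusted p = 0.447; -1.96 against naive replicate 1) and the nuclease subunit Ercc1 0.19 ± 0.47.

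A list of further genes of these pathways and of translesion synthesis had 80 genes on the array, of which 68 with 95 probe sets were tested. Of these 95, 1 rose at day 7 and 0 fell (1.06% and 0.107% of all probe sets), with a median difference of 0.28. The gene that rose was Tipin, a partner of Timeless at replication forks, with log2 ratios of -0.09, -0.89 and -0.46 in naive samples, 1.27, 1.52 and 1.65 in day 7 samples, and -0.21 and 0.09 in day 28 samples. All day 7 arrays were above all others (difference 1.96 ± 0.31, adjusted p = 0.0347; 1.57 against naive replicate 1). Known target genes of p53, 25 tested probe sets, had a median of 0.12 and 0 passed in limma, with 9 of 25 higher (background 12.4%) and 3 lower (background 3.08%) at an unadjusted p under 0.05. The smallest p-values among them were for Sesn1, a stress protein (-1.97 ± 0.41), Ei24 (2.75 ± 0.69), Ccng1, a cyclin (2.39 ± 0.65), and a further Sesn1 probe set (-1.32 ± 0.38), so the directions differed. Against naive replicate 1, Ei24 had 1.04, Ccng1 1.0 and the Sesn1 probe sets -2.69 and -1.84.

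**Figure D3:**
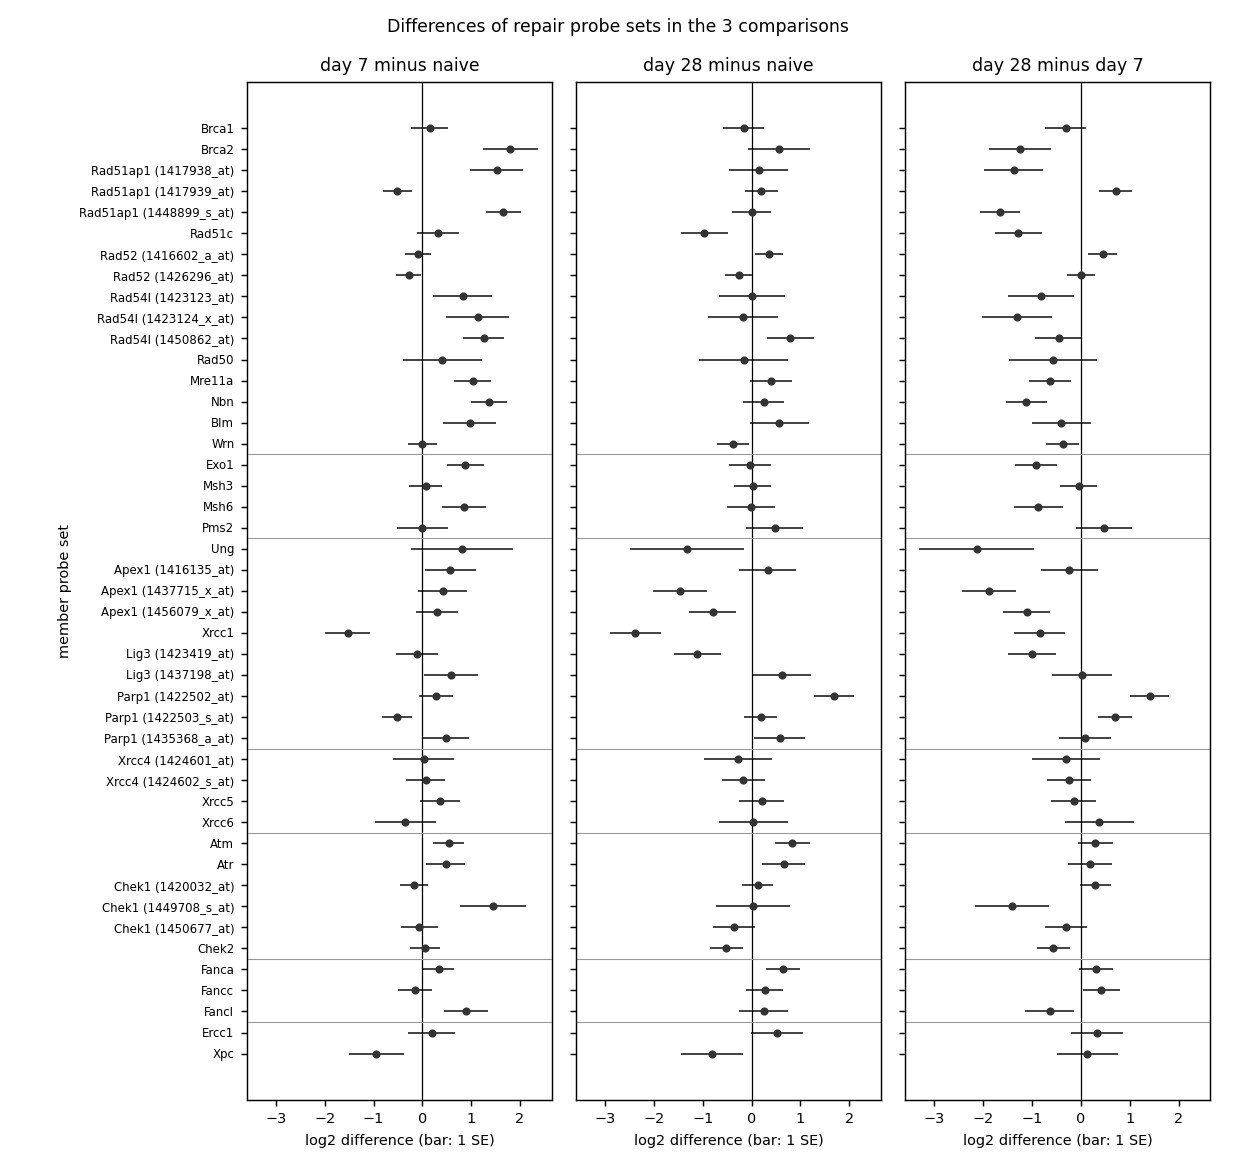
Log2 difference and its SE for each tested repair probe set in the 3 comparisons. Recombination genes at the top lie mostly right of 0 for day 7 minus naive and left of 0 for day 28 minus day 7, and Xrcc1 has the lowest value in both comparisons with naive.

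The comparison of day 28 with naive arrays asked what differed 4 weeks after immunization. Again 0 of 45 probe sets passed in limma, where 0.322% of all probe sets were called (0.268% higher and 0.0537% lower). At an unadjusted p under 0.05, 4 of 45 were counted (8.89%, background 6.34%): Parp1 and Atm were higher (2 of 45, 4.44%, background 3.13%) and Xrcc1 and Apex1 lower (2 of 45, 4.44%, background 3.21%). A difference above 0 was seen for 26 of 45 (57.8%, background 45.5%). The 16 recombination probe sets had a median difference of 0.08. Of the genes that led at day 7, Rad51ap1 1448899_s_at had -0.00 and Nbn 0.25, while Brca2 had 0.55, Mre11a 0.40 and Rad54l 1450862_at 0.79. B cell markers rose in 8 of 10 tested probe sets, with a median difference of 5.21 over the 10. Of these markers, Blnk and Fcer2a would not have passed the filter without their high day 28 values. The part of these markers' difference in the values that follow was not tested.

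Xrcc1 had the smallest p of the members, with a difference of -2.38 ± 0.52 (adjusted p = 0.220) and a 95% interval of -3.59 to -1.17. Within the high spike-in arrays the difference was -2.81. Parp1 probe set 1422502_at had log2 ratios of 0.00, -0.07 and -0.71 in naive samples, 0.44, -0.38 and 0.00 in day 7 samples, and 1.75 and 1.11 in day 28 samples. Both day 28 arrays were above all other arrays (difference 1.69 ± 0.40, adjusted p = 0.285; 1.82 within the high spike-in arrays). The gene's other 2 probe sets had differences of 0.18 and 0.57, and the mean of its 3 was 0.81 ± 0.28 (adjusted p = 0.581).

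Apex1 probe set 1437715_x_at had log2 ratios of 1.14, 0.00 and -0.01 in naive samples, 0.00, 1.61 and 0.76 in day 7 samples, and -1.33 and -0.86 in day 28 samples. The day 28 arrays were the lowest, at -1.46 ± 0.56 from naive (adjusted p = 0.703; -1.08 within the high spike-in arrays). A further Apex1 probe set had -0.80 ± 0.48, and the third had 0.33 ± 0.58 with the opposite sign. Lig3 likewise had -1.11 ± 0.49 by 1423419_at and 0.61 by 1437198_at.

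Atm had log2 ratios of -0.26, -0.41 and -0.94 in naive samples against 0.46 and 0.14 in day 28 samples, without overlap (difference 0.83 ± 0.35, adjusted p = 0.775; 0.97 within the high spike-in arrays). Without its day 28 values, Atm would have reached a ratio of 1 on too few arrays to pass the filter. Its p-value and lack of overlap are therefore descriptions. Atr had 0.36, -0.84 and -1.04 against 0.27 and 0.03, with naive replicate 1 above both day 28 arrays (difference 0.66 ± 0.45; 1.09 within the high spike-in arrays). Rad51c was lower, at -0.27 and -1.37, than its naive values of 0.57, -0.05 and -0.08 (difference -0.97 ± 0.48, adjusted p = 0.894; -0.76 within the high spike-in arrays). Fanca (0.65 ± 0.35), Rad54l probe set 1450862_at (0.79 ± 0.48) and Chek2 (-0.52 ± 0.34) also had groups without overlap. In all, 6 of 45 probe sets were wholly higher at day 28 (13.3%, background 7.76%) and 7 wholly lower (15.6%, background 9.88%). The 6 include the dim probe sets of Atm, Fanca and Rad54l (1450862_at), which reached a ratio of 1 only on arrays after immunization. They passed the filter because they were higher there, so the count of 6 is a description. Of the other repair genes, 0 of 95 probe sets passed in limma, and 0 were at an unadjusted p under 0.05.

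The comparison of day 28 with day 7 shares its day 7 arrays with the first comparison, so the values are set side by side and are not independent. All 3 day 7 arrays belonged to the low spike-in set and both day 28 arrays to the high set. Time and spike-in set cannot be told apart in this comparison, and no difference inside a set can be given. With a term for the spike-in sets, 0 of 13042 probe sets were called. Without that term, 0 of 45 member probe sets passed in limma, where 1.30% of all probe sets were called. At an unadjusted p under 0.05, 1 member was higher (2.22%, background 3.47%) and 4 lower (8.89%, background 13.1%). A difference above 0 was seen for 16 of 45 (35.6%, background 41.9%). Rad51ap1 probe set 1448899_s_at had a difference of -1.66 ± 0.40 (adjusted p = 0.105), Apex1 1437715_x_at of -1.88 ± 0.56 (adjusted p = 0.161), Rad51c of -1.28 ± 0.48 (adjusted p = 0.245) and Nbn of -1.11 ± 0.42 (adjusted p = 0.245). Parp1 probe set 1422502_at was higher by 1.41 ± 0.40 (adjusted p = 0.147).

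Ung had the largest difference of any member here, -2.14 ± 1.17, but its day 7 replicate 1 value of -0.14 was nearer to the day 28 values of -0.82 and -0.83 than to the other day 7 values (adjusted p = 0.418). Chek1 1449708_s_at (-1.42 ± 0.76), Brca2 (-1.25 ± 0.63) and Exo1 (-0.91 ± 0.43) were lower, each with a day 7 replicate 1 value close to the day 28 values or, for Brca2, below 1 of them. Wholly lower at day 28 were 14 of 45 probe sets (31.1%, background 29.7%), and wholly higher 4 (8.89%, background 15.2%). The 14 include Rad51ap1 1448899_s_at, Rad54l 1450862_at and Exo1, which passed the filter only because they were high at day 7. The median over the 45 was -0.31, against -0.16 for all probe sets tested. Members of the pathways other than recombination and base excision had adjusted p-values of 0.342 (Exo1) or more. Of the 32 tested proliferation probe sets, 6 fell in limma (0.882% of all probe sets). The median over the 32 was -1.34, and the part of proliferation in these values was not tested. The 6 include Ccnb2 and a dim Ccna2 probe set, which passed the filter only because they were high at day 7. The count of 6 is therefore a description.

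**Figure D4:**
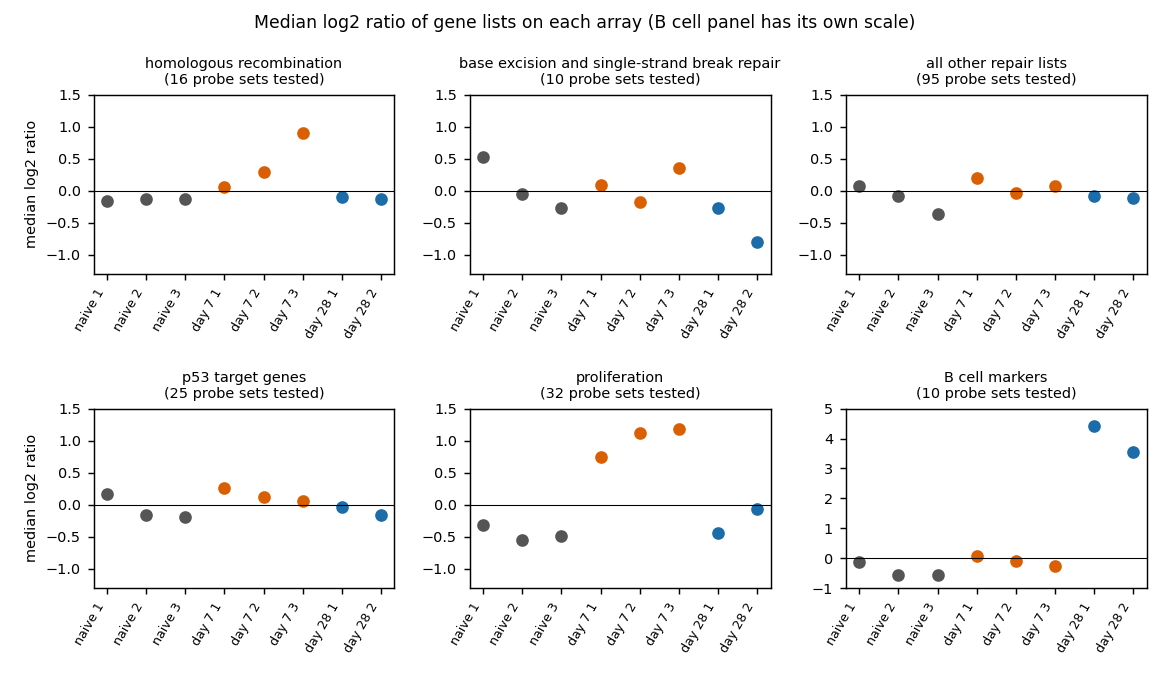
Median log2 ratio of 6 gene lists on each array, with naive arrays in grey, day 7 in orange and day 28 in blue. The recombination median is 0.06, 0.29 and 0.91 on the day 7 arrays and between -0.16 and -0.09 on all others, and the B cell panel has its own scale.

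The number of arrays limits what could be called. At the members' median SE, a log2 difference of 2.40 would have been needed to pass for day 7 minus naive, 3.27 for day 28 minus naive and 2.64 for day 28 minus day 7. The largest member differences were 1.80, 2.38 and 2.14, each smaller than the difference needed. A p above the threshold therefore does not show that these genes were unaltered. The members' median SE at day 7 (0.43) was close to that of all probe sets (0.44).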

How the data were processed

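The deposited values were linear ratios, made by the authors with GCRMA, per the submitters' processing notes. In the file, each probe set's median over the 8 arrays is 1, or lower for dim probe sets, which was read from the values and taken as division by the median or by a common floor; how the floor was set is not given in the sources used here. The ratios were analysed as log2 values, without further normalization. A probe set was kept where 2 or more arrays reached a ratio of 1, and 64 control probe sets were left out. One mean per group was fitted over all 8 arrays with limma 3.58.1 in R 4.3.3 (lmFit, eBayes, two-sided), with Benjamini-Hochberg adjustment over 13042 probe sets and a threshold of 0.05. Symbols came from the platform annotation, which gave 1 symbol to 20380 probe sets, several to 691 and none to 1555.

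Every member with a probe set is named. Statistics are given for the members with the smallest p of each pathway and comparison, and others are given to account for every member. The members and lists were chosen with earlier results of these data known. The script was tested on simulated data. The number of arrays limits the precision. Other filters, normalizations, variance settings, array weights, thresholds, gene means, a term for the spike-in sets, the replicate number as a block and leaving out each array were tried. Correlations of same-numbered arrays' deviations ran from -0.36 to 0.17, so the numbers were not taken as pairs.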

Additional observations from a re-analysis of the deposited data

How the results depend on the processing

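In all alternatives other than array weights and leaving out 1 array, 0 of the tested member probe sets passed in any comparison. With array weights, whose estimation did not converge, 8 passed at day 7 against naive (22.5% of all probe sets) and 5 at day 28 against day 7 (12%). Leaving out 1 array gave 0 to 2 at day 7 against naive and 0 in the other comparisons; the 2 came without naive replicate 1. With the replicate number as a block, 0 passed, and the medians were 0.33 for day 7 minus naive, 0.09 for day 28 minus naive and -0.28 for day 28 minus day 7.

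The median day 7 difference of 0.33 was 0.10 with no filter, 0.22 after quantile normalization, 0.45 with array weights, 0.015 with the spike-in term and 0.20 to 0.52 when 1 array was left out. The median of day 28 minus day 7 (-0.31) was -0.084 with no filter, -0.20 after median centring, -0.058 with the spike-in term, -0.44 with gene means and -0.49 to -0.30 when 1 array was left out. That of day 28 minus naive (0.03) ran from -0.07 to 0.12 when 1 array was left out and was 0.13 after quantile normalization.

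Signs turned for members whose differences were small against their SE or varied between arrays, and the cause was not tested. For day 7 minus naive, Fanca was -0.052 and Ercc1 -0.16 with array weights, Xrcc6 0.45 with the spike-in term, and Parp1 0.083 with gene means. Leaving out 1 array gave -0.75 to 0.34 for Xrcc6 and -0.10 to 0.64 for Ercc1. For day 28 minus naive, Exo1 was 0.032 with the replicate block, and leaving out 1 array gave -0.34 to 1.28 for Pms2, -0.20 to 0.61 for Xrcc5, -0.81 to 0.24 for Xrcc4 and -0.30 to 0.84 for Fancc. For day 28 minus day 7, Xpc was -0.12 with the replicate block, and the spike-in term gave Xrcc6 -0.83, Xrcc4 0.68, Fancl 0.53 and Ercc1 -0.15. Leaving out 1 array there gave -0.20 to 0.96 for Xrcc6, -0.15 to 0.99 for Fancc, -0.013 to 0.57 for Ercc1 and -0.38 to 0.64 for Xpc.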

Other observations

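Genes of antibody gene diversification, a list that shares Ung, Exo1, Msh6 and Apex1 with the repair genes, had 8 tested probe sets. At day 7 their median difference from naive was 0.50, against 0.11 for all probe sets tested. Within the low spike-in arrays it had the opposite sign, at -0.14 against -0.00. In limma 0 passed, with 0 at an unadjusted p under 0.05. Their median was -0.03 at day 28 against naive. Of the NK and CD8 markers, 1 of 6 tested probe sets, that of Cd8b1, rose at day 28 against naive (0.268% of all probe sets), with a median of 2.36 over the 6. Cd8b1 reached a ratio of 1 only on the day 28 arrays and passed the filter because it was high there. Its call is therefore a description. At an unadjusted p under 0.05, 4 of these 6 were higher (background 3.13%). Of the myeloid markers 0 of 8 passed in limma, with a median of 0.71 and 2 higher at an unadjusted p under 0.05 (background 3.13%).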
